A study of Mus musculus with 2 samples.

Results

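The genes described here encode the proteasome: its subunits, activators, inhibitor and assembly factors. They were taken by name, as every gene name of the array that begins with Psma, Psmb, Psmc, Psmd, Psme, Psmf or Psmg followed by a digit, which gave 44 of 27670 gene names and 67 of 41174 probes. Of these names, 42 fell into the groups of the proteasome and 2 did not, namely Psmc3ip, a meiotic recombination factor that shares only the name, and Psme2b-ps, a Psme2-like gene. No file name was Psme2 and none began with Psmg. The measurement was made in B cells from the spleens of C57BL/6 mice, enriched by removing CD43-bearing cells and activated with 25 µg/ml lipopolysaccharide and 10 ng/ml interleukin-4. The cells took up a retrovirus over 20 h with 8 µg/ml of the cationic polymer polybrene. They carried either the miR181b-GFP vector or the control-GFP vector, and green fluorescent cells were sorted 2 days after transduction. There was 1 RNA sample per vector. Both RNAs, from the same culture conditions, shared each of 2 Agilent arrays of the mouse genome. On array 1 the dye of the miR-181b RNA was Cy5 and that of the control RNA Cy3, and on array 2 the dyes were exchanged. Both arrays repeat the same pair of RNAs, so no test between vectors could be made and no p-value is given. Each ratio below is the log2 of miR-181b over control, and each mean is over both arrays, followed by ± the distance from it to each array. This distance is technical spread and holds nothing of the variation between cultures. Values given by array are array 1 first, then array 2, and values by dye are Cy3 first, then Cy5.

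The proteasome is the protease that degrades proteins tagged with ubiquitin chains. Its 20S core is a barrel of outer alpha rings, which gate the entry, and inner beta rings, of which Psmb5, Psmb6 and Psmb7 cut peptide bonds. The regulatory particle sits on the barrel: its base holds a ring of ATPases, the Psmc genes, that unfold the substrate, and its lid removes the ubiquitin chain. In lymphocytes, Psmb8, Psmb9 and Psmb10 replace the catalytic subunits and form the immunoproteasome, which together with the activator of Psme1 and Psme2 makes peptides suited to presentation on MHC class I. Cells that secrete antibody are known for their dependence on this protease.

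The microRNA itself is shown first, because its seed gives the letters that were searched for here. In RefSeq (GRCm38.p6) the mature form is encoded on the plus strand at chr1:137966650-137966673 (Mir181b-1) and at chr2:38853845-38853868 (Mir181b-2), and bases 2 to 8, the seed, are in capitals.
mmu-miR-181b-5p: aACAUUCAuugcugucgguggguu

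The letters that pair with this seed are TGAATGT. In the probe sequences of the scanner files, 2 of 67 proteasome probes (2.99%) held them, against 393 of 41174 probes of the array (0.954%). The other strand, ACATTCA, was found in 0 of these 67 probes and in 0.646% of all probes. The stretches of both proteasome probes that hold the letters, in capitals, are shown because they are the only places where a seed match could be read next to a measured ratio.
Psmb4: tgaaatccagtTGAATGTccagagtgt
Psmf1: ttttaagtcatTGAATGTatctggaatgga

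The probe of Psmb4 was saturated in Cy5 on both arrays, so its array ratios of 0.21 and 0.03 set a clipped signal against an open one, and the Cy3 pair, which compares the RNAs in that dye alone, gave 0.11. The probe of Psmf1, the dimmest of 3 measured for that gene, had signals of 81 to 127 units. It gave 0.09 and 0.15 by array, with 0.16 in Cy3 and 0.06 in Cy5. Neither probe read lower with miR-181b, though that of Psmb4 had an open reading in Cy3 only and that of Psmf1 was dim. A probe covers a short piece of a transcript, so the letters outside the probes were not searched.

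Of the 42 proteasome genes, 40 were measured, meaning that their signal was well above background in both dyes on both arrays and no spot was left out as an outlier, as for 17579 genes of the array. Their log2 ratios were small. The means ran from -0.24 to 0.35, with a median of 0.09 (0.08 and 0.03 by array), against -0.01 for all measured genes. The largest difference in either direction was 1.28-fold, and 5 of 40 genes passed 1.2-fold, against 13.0% of all genes. None of the 40 reached 1.5-fold on the mean without a change of sign between arrays, in a background of 0.819% of genes higher and 0.512% lower. None reached 2-fold on the mean with at least 1.5-fold on each array, a rule that 0.00569% of all genes met upwards and 0.0967% downwards. On both arrays, 16 of 40 (40.0%) were higher and 3 (7.50%) lower, where 24.4% of all measured genes were higher and 27.4% lower. The remaining 21 changed sign between the arrays: 14 were higher on array 1 and lower on array 2 (27.0% of all genes), and 7 the other way (21.1%). The direction of the family depends on the removal of the intensity trend within each array. With centring on the array median in place of that step, the median of the family was -0.33, that of all genes -0.20 and that of the brightest 10% of genes -0.40, with 0 members higher and 20 lower on both arrays (9.06% and 55.3% of all genes). The family's distance from the brightest 10%, to which 27 of its 40 measured members belonged, was 0.08 either way. With the trend removed, it was 0.08 on array 1 alone and 0.0 on array 2 alone, where both medians were 0.03. However, 440 of the 1758 brightest genes were saturated. Among genes never saturated, the medians by array were 0.09 and 0.02 for the family and 0.04 and -0.06 for the brightest 10%.

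**Figure D1:**
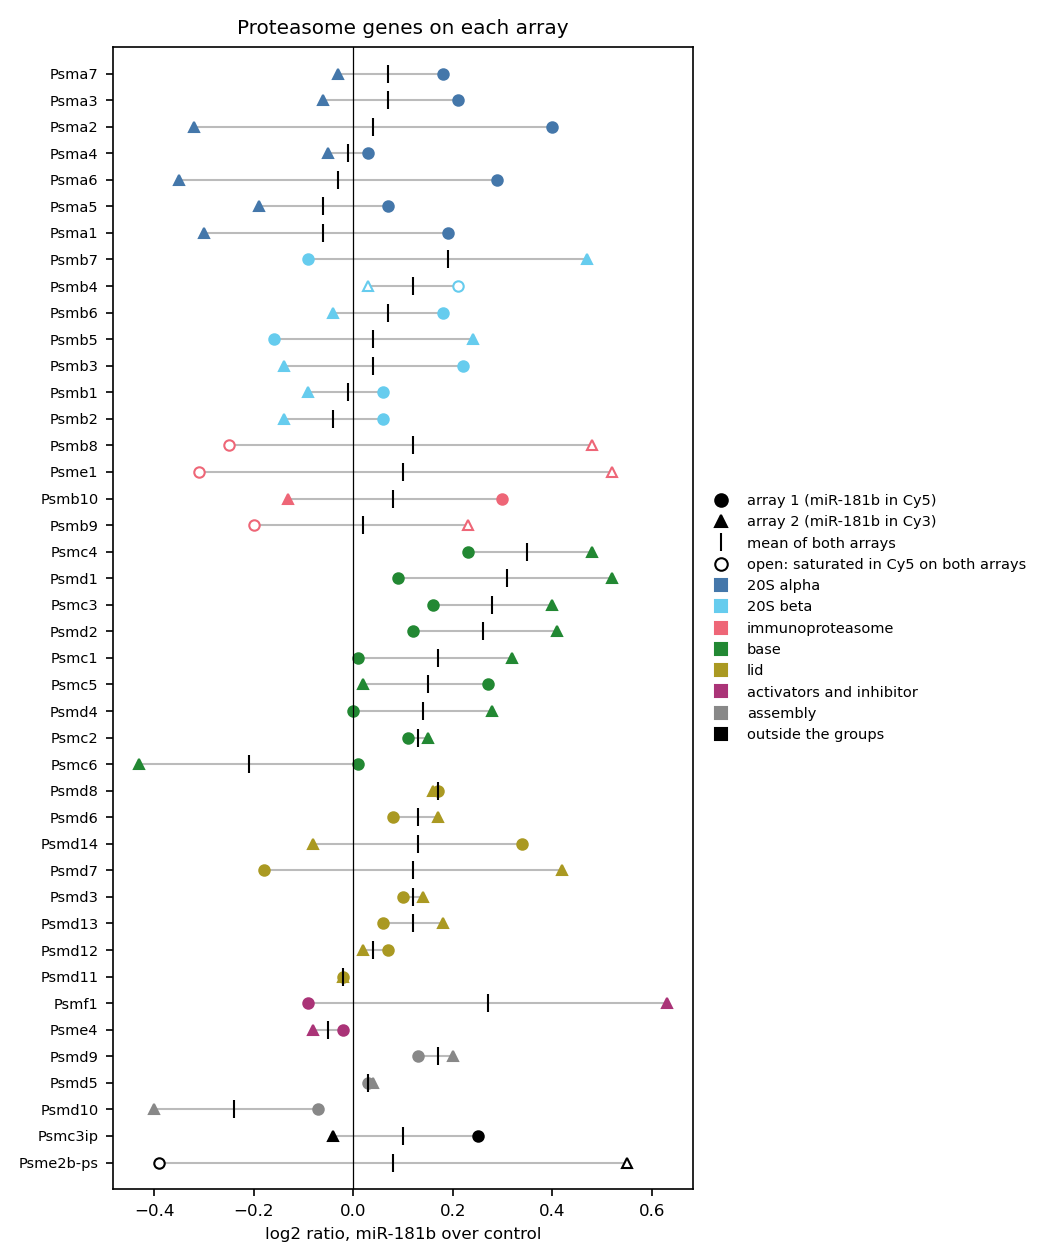
Log2 ratio of miR-181b over control for each measured proteasome gene on array 1 (circles) and array 2 (triangles), with the mean as a vertical tick, coloured by group and with open symbols for genes saturated in Cy5. The 7 alpha subunits lie to the right of 0 on array 1 and to the left on array 2, while 8 of the 9 base subunits lie to the right of 0 on both.

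The same 4 signals of a gene can be paired by dye instead of by array. The Cy3 pair sets the miR-181b signal of array 2 against the control signal of array 1, and the Cy5 pair sets the miR-181b signal of array 1 against the control signal of array 2. These pairs use no new data, but a difference in how well a probe takes up each dye cancels within each. Across 40 members the ratios of array 1 and array 2 ran against each other (Pearson r = -0.47, Spearman rho = -0.41), and for the 36 never saturated r was -0.36 and rho -0.30. Across the same 36 members the Cy3 and Cy5 pairs ran together, with r = 0.73 and rho = 0.70. For all 17139 genes never saturated the corresponding r values were 0.22 by array and 0.50 by dye. Genes are not independent replicates, and these correlations only describe how far both readings of a gene resembled each other. In both dye pairs, 20 of 36 members were higher and 6 lower, against 32.1% and 39.1% of all genes. The Cy3 pair alone, free of saturation for all 40, was higher in 31 of 40 members, against 47.5% of all genes.

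**Figure D2:**
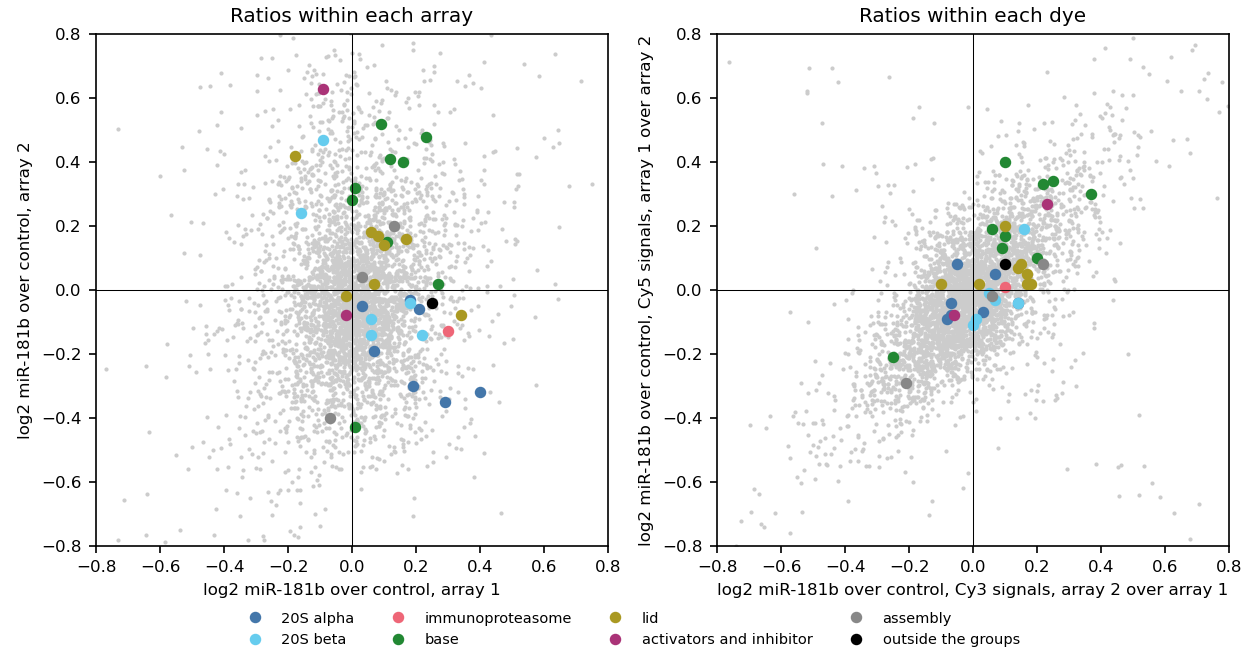
Each coloured point is a proteasome gene never saturated and each grey point a gene from a random draw of those never saturated, with log2 ratios of miR-181b over control by array on the left and by dye on the right. The proteasome genes spread from upper left to lower right by array (r = -0.36 over the 36 in the groups) and from lower left to upper right by dye (r = 0.73).

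The alpha subunits gave no common direction. All 7 measured members were higher on array 1 and lower on array 2, and the group's median was 0.19 on array 1, -0.19 on array 2 and -0.01 on the mean. Among the brightest 10% of genes that were never saturated, 31.3% had the same pair of signs. Psma2 showed the widest gap of the group: 0.40 on array 1, -0.32 on array 2 and 0.04 ± 0.36 on the mean, with -0.05 in the Cy3 pair and 0.08 in the Cy5 pair. By dye, the whole group lay between -0.09 and 0.14. The highest means were those of Psma7, at 0.07 ± 0.11 from 0.18 and -0.03, and of Psma3, at 0.07 ± 0.13 from 0.21 and -0.06. The uncorrected Cy3 signal of Psma7 was 19614 units for control and 18899 for miR-181b, and its Cy5 signal 44959 and 41855. Psma5 had a mean of -0.06 ± 0.13, the lowest by a margin too small to show at this precision, since Psma1 was at -0.06 ± 0.24. The Psma5 signals were 27611 in control and 22811 in miR-181b in Cy3, and 61497 and 55153 in Cy5. Uncorrected signals of different arrays differ in overall brightness and are shown here only as the readings behind the ratios. Psma4 was at -0.01 ± 0.04 and its other probe at 0.00, with array values of 0.15 and -0.15. Psma8, the germ cell form of an alpha subunit, was not well above background in 1 of its 4 readings and has no ratio.

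The beta subunits had a median of 0.04 (0.06 and -0.04 by array), and 1 of 7, Psmb4, was higher on both arrays. Psmb4, a structural subunit, was saturated in Cy5 on both arrays, where both RNAs read 65234 and 65233 units at the top of the scale. In Cy3, where it was not saturated, it read 29679 units in control and 27902 in miR-181b, a log2 ratio of 0.11 after normalisation, against a mean of 0.12 ± 0.09 by array. The lowest of the group was Psmb2, at -0.04 ± 0.10, with 0.00 in the Cy3 pair and -0.11 in the Cy5 pair. Psmb3 was at 0.04 ± 0.18 and its other probe at -0.03.

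Among the constitutive catalytic subunits, Psmb7, which has trypsin-like activity, had the highest ratio. It was at -0.09 on array 1 and 0.47 on array 2, with a mean of 0.19 ± 0.28. By dye its ratios were 0.16 in Cy3 and 0.19 in Cy5, so both pairs put it higher although the arrays disagreed in sign. Psmb5, which has chymotrypsin-like activity, was at -0.16 and 0.24 by array (0.04 ± 0.20) and at 0.05 and -0.01 by dye. Psmb6, with caspase-like activity, was at 0.18 and -0.04 by array (0.07 ± 0.11) and at 0.14 and -0.04 by dye. For these genes the technical spread was as large as the mean or larger.

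On both arrays the Cy5 spots of 3 of the 4 immunoproteasome genes were saturated, and their Cy5 signals do not resolve a difference. Psmb8, Psmb9 and Psme1 read 65233 or 65234 units in Cy5 for both RNAs, and 65234 was the highest Cy5 signal of any spot. Their array ratios therefore set a clipped Cy5 signal against an open Cy3 signal, and each of the 3 was lower on array 1 and higher on array 2. Psmb8, the immunoproteasome's counterpart of Psmb5, was at -0.25 and 0.48 by array, with a mean of 0.12 ± 0.36. In Cy3 it read 40448 units in control and 37761 in miR-181b, a normalised log2 ratio of 0.10, and its other probe, also saturated in Cy5, gave 0.10 in Cy3 too. Psmb9, the counterpart of Psmb6, was at -0.20 and 0.23 (0.02 ± 0.22), and its Cy3 signals of 39087 in control and 32049 in miR-181b gave -0.08. Psmb9 was the only one of the 4 immunoproteasome genes with a Cy3 ratio below 0. Psme1, a subunit of the activator that opens the barrel, was at -0.31 and 0.52 (0.10 ± 0.42), with 42350 and 38859 units in Cy3 and a Cy3 ratio of 0.08.

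Psmb10, the counterpart of Psmb7, was the only immunoproteasome gene with both dyes on scale. It was at 0.30 on array 1 and -0.13 on array 2, with a mean of 0.08 ± 0.22. The Cy3 pair gave 0.10, from 24340 units in control and 22866 in miR-181b, and the Cy5 pair gave 0.01, from 59134 and 56787. The group's median in Cy3 was 0.09, against 0.04 for the 14 genes of the constitutive core in the same dye. Within each exchange of subunits, the Cy3 ratios were 0.10 for Psmb8 and 0.05 for Psmb5, -0.08 for Psmb9 and 0.14 for Psmb6, and 0.10 for Psmb10 and 0.16 for Psmb7. The differences ran in both directions, and no common shift from constitutive to immunoproteasome subunits, or back, was seen in these RNAs. Each Cy3 ratio is a single reading without a spread, so these values cannot decide whether a shift took place. Psme2b-ps had the same signs as Psme1 on the arrays, with -0.39 and 0.55 and saturation in Cy5, and was at 0.03 in Cy3 (0.11 with its other probe). Whether these probes read a Psme2-like gene, as the file names them, or Psme2 could not be settled, and no other probe for Psme2 was analysed here.

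**Figure D3:**
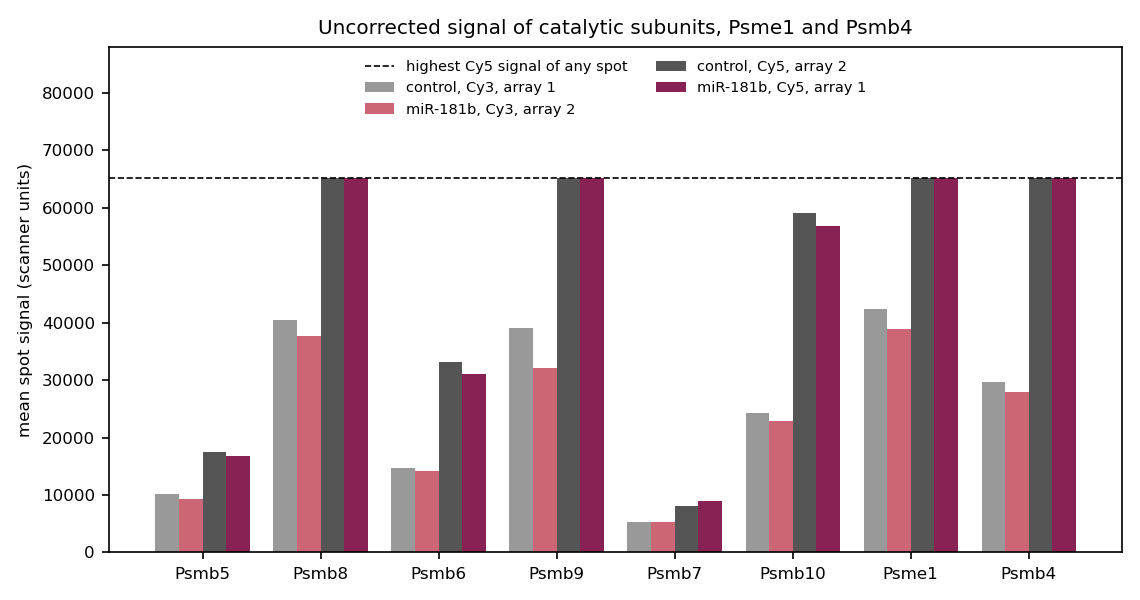
Mean spot signal in scanner units, before any correction, for control and miR-181b RNA in Cy3 and in Cy5. Within a gene and dye, control and miR-181b come from different arrays, which differ in overall brightness. Heights alone therefore do not give the direction of a ratio, and genes cannot be compared by height. The Cy5 bars of Psmb8, Psmb9, Psme1 and Psmb4 reach the dashed line at the highest Cy5 signal, 65234 units, for both RNAs, while those of Psmb5, Psmb6, Psmb7 and Psmb10 stay below it.

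The base of the regulatory particle held the highest ratios of the family. Its median was 0.17 (0.11 and 0.32 by array), against 0.01 for the brightest 10% of all genes. Higher on both arrays were 8 of 9 members, against 24.4% of all genes, 23.6% of the brightest 10% and 28.1% of the brightest never saturated. Of these, Psmd4 and Psmc1 were at 0.00 and 0.01 on array 1, so that their sign there rests on almost nothing. In both dye pairs 8 were higher too, against 32.1% of all genes, and the medians were 0.10 in Cy3 and 0.19 in Cy5. With centring in place of the removal of the intensity trend, the median of the base was -0.23, 0.17 above the brightest 10% but 0.03 below all genes. The highest was Psmc4, an ATPase, at 0.23 on array 1 and 0.48 on array 2, which is a mean of 0.35 ± 0.12 or 1.28-fold. Its Cy3 signal was 8433 units in control and 9660 in miR-181b, and its Cy5 signal 15220 and 18132. It was thus higher on both arrays and in both dye pairs (0.37 and 0.30), and its other probe gave 0.42. Psmd1, a large scaffold subunit, was at 0.09 and 0.52 (0.31 ± 0.22, 1.24-fold), with 0.25 in Cy3 and 0.34 in Cy5. Psmc3, another ATPase, was at 0.16 and 0.40 (0.28 ± 0.12, 1.22-fold), with 0.22 and 0.33 by dye. Psmd2, the second scaffold subunit, was at 0.12 and 0.41 (0.26 ± 0.14, 1.2-fold), and its other probe at 0.42 disagreed between the arrays, with -0.13 and 0.97. Psmd1, Psmc3 and Psmd2 were named after their values were seen.

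Psmc6 went against the rest of the base. This ATPase was at 0.01 on array 1 and -0.43 on array 2, with a mean of -0.21 ± 0.22, or 1.16-fold lower. In both dye pairs it was lower, at -0.25 in Cy3 (16714 units in control and 12339 in miR-181b) and -0.21 in Cy5 (37846 and 31451). Its other probe gave -0.16. The 6 ATPases form 1 ring of equal parts, and their means ran from -0.21 to 0.35. Psmc2 was at 0.13 ± 0.02, while its other probe, with signals of 167 to 352 units, gave -0.15. The 3 base subunits without ATPase activity had a median of 0.26, and Psmd4, a ubiquitin receptor, was the lowest of them at 0.14 ± 0.14.

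The lid showed smaller ratios of mostly the same sign. Its 8 members had a median of 0.12 (0.08 and 0.15 by array). On both arrays 5 stood higher and 1 lower, against 24.4% and 27.4% of all genes. In both dye pairs 7 of 8 were higher and none was lower, against 32.1% and 39.1% of all genes. The medians were 0.15 in Cy3 and 0.04 in Cy5. Psmd3, Psmd12 and Psmd13 were each at 0.02 in Cy5, so that their sign there rests on almost nothing. The highest was Psmd8, at 0.17 and 0.16 (0.17 ± 0.00, 1.12-fold), with 0.10 in Cy3 and 0.20 in Cy5. Its Cy3 signal was 11639 units in control and 10977 in miR-181b, and its Cy5 signal 21798 and 24202. The lowest was Psmd11, a scaffold subunit, at -0.02 on each array, with -0.10 in Cy3 and 0.02 in Cy5. Psmd14, the enzyme that cuts off the ubiquitin chain, was at 0.34 and -0.08 (0.13 ± 0.21), and Psmd7, its partner, at -0.18 and 0.42 (0.12 ± 0.30). The members of this enzyme pair thus had similar means from opposite array signs, and by dye both were higher, at 0.17 and 0.05 for Psmd14 and at 0.14 and 0.07 for Psmd7. Both were named after their values were seen. Psmd12 was at 0.04 ± 0.02 and its other probes at -0.01 and -0.06.

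Base and lid together stood above the 20S core in most readings. The 17 genes of the regulatory particle had a median of 0.13, 13 being higher and 1 lower on both arrays. The 14 of the core had a median of 0.04, with 1 higher on both arrays and 11 higher on array 1 and lower on array 2. Of all genes, 24.4% were higher on both arrays, 27.4% lower on both, and 27.0% higher on array 1 and lower on array 2. The difference of the unrounded medians was 0.09. In the Cy3 pair it was 0.11, in the Cy5 pair 0.14, and with centring in place of the removal of the intensity trend 0.13. On array 2 alone it was 0.25 and on array 1 alone -0.09, so array 1 put the core above the regulatory particle. This comparison was chosen after the values were seen, rests on 1 pair of RNAs and has no test. In both dye pairs, 15 of 17 genes of the regulatory particle were higher, against 32.1% of all genes.

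**Figure D4:**
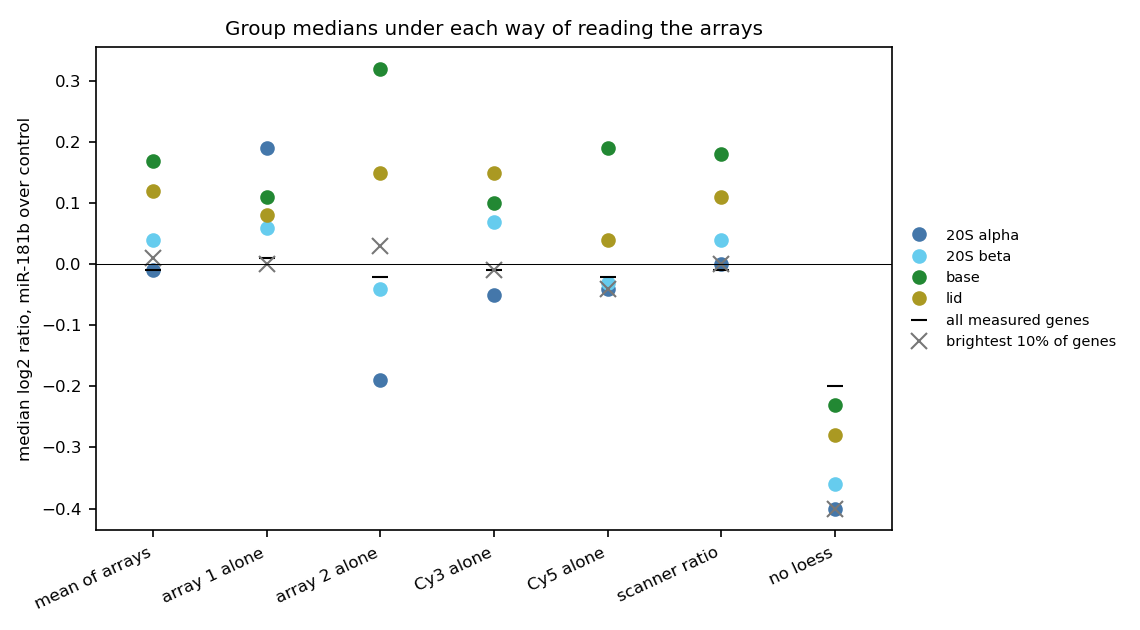
Median log2 ratio of miR-181b over control for 4 groups of proteasome subunits, all measured genes (dashes) and the brightest 10% of genes (crosses) under each way of reading the arrays, from the mean of both arrays to the reading with no loess, which centres each array on its median and leaves the intensity trend in place. The base lies above the alpha subunits except on array 1 alone, where their medians are 0.11 and 0.19, and without loess all 4 groups fall below all measured genes.

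Of the other activators and the inhibitor, Psmf1 and Psme4 were measured. Psmf1, an inhibitor of the core in the test tube, was at -0.09 on array 1 and 0.63 on array 2, with a mean of 0.27 ± 0.36. By dye it was at 0.23 in Cy3 and 0.27 in Cy5, and its other probes gave 0.17 and 0.12. Its signals ran from 811 to 1304 units. Psme4, an activator that binds the core in the nucleus, was at -0.02 and -0.08 (-0.05 ± 0.03), with -0.06 and -0.08 by dye. Its other measured probes gave 0.27 and -0.07, the first with -0.07 on array 1 and 0.61 on array 2. Psme3, the nuclear relative of Psme1, was well above background in all 4 readings, but its spot on array 2 was marked as an outlier. Array 1 gave it a ratio of -0.02.

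The assembly factors, which hold the ATPases together before the base joins the core, had no common direction. Psmd9 was at 0.13 and 0.20 (0.17 ± 0.03) and was higher in both dye pairs. Its other probe, at 0.18, disagreed between the arrays, with -0.05 and 0.40. Psmd5 was at 0.03 and 0.04 (0.03 ± 0.00). Psmd10, also called gankyrin, was the lowest gene of the family, at -0.07 on array 1 and -0.40 on array 2 (-0.24 ± 0.17, 1.18-fold lower). In Cy3 it read 1847 units in control and 1456 in miR-181b, a ratio of -0.21, and in Cy5 3729 and 3061, a ratio of -0.29. Psmd10 was therefore lower on both arrays and in both dye pairs, as was Psme4 at a smaller size. The assembly chaperones of the core were on the array under older names and were found through RefSeq. Psmg1 was at 0.03 and -0.36 (-0.16 ± 0.20), with -0.16 and -0.20 by dye. Psmg2 was at -0.05 and -0.06 with its 2 probes, the second from 0.25 and -0.37 by array. Psmg3 was at -0.05 ± 0.08. Psmg4 was not analysed here. Psmc3ip, which is no proteasome gene, was at 0.25 and -0.04 (0.10 ± 0.14).

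Promoters were read for letters bound by factors known to drive proteasome genes, because 8 of 9 base genes shared a sign. RefSeq held 37 promoters (250 bases before to 50 after the start, GRCm38.p6) for 35 of the 42 genes. The antioxidant response element, bound by NFE2L1 and NFE2L2, was searched as TGACNNNGC on both strands. It was in 6 of 37 proteasome promoters (16.2%), against 12.4% of 32851 promoters of the genome. Among the base genes 1 of 8 with a promoter held it, Psmc6, and among the alpha genes 0 of 7, against 14% of all genes with a promoter. CCAAT, the letters bound by NF-Y, was in 13 of 37 (35.1%), against 37.4% of all. For the family as a whole, neither share stood far from that of all promoters. By gene, CCAAT was in 5 of 7 alpha genes (71.4%) and 3 of 8 base genes (37.5%), against 41.1% of all genes with a promoter. The matches of the catalytic genes Psmb5 and Psmb6 are shown with their capitals at the element (Psmb7 was not searched), at chr14:54618024-54618052 on the minus strand for Psmb5 and at chr11:70525338-70525366 on the plus strand for Psmb6.
Psmb5: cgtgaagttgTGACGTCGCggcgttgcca
Psmb6: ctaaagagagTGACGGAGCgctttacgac

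The factors themselves showed small ratios. The list of factors that act on the transcription of proteasome genes had 9 measured members and a median of -0.05, with 5 members lower on both arrays and 1 higher. The highest was Nfya, a subunit of NF-Y, at 0.31 and 0.27 (0.29 ± 0.02), and the lowest Nfyb, its partner subunit, at -0.07 and -0.51 (-0.29 ± 0.22). Nfe2l1, the main inducer of proteasome genes when the protease is inhibited, was at -0.06 ± 0.02, and Ddi2, the protease that releases it, at -0.27 ± 0.08. Among 9 companions that bind the proteasome or help to build it, the median was 0.04. The ubiquitin receptor Adrm1 of the regulatory particle was at 0.22 and 0.18 (0.20 ± 0.02), Rad23b, which brings substrates to the proteasome, at 0.04 ± 0.01, and Pomp, the maturation factor of the core, at 0.13 ± 0.13 with saturation in Cy5. All 4 genes that encode ubiquitin were saturated. Of the enzymes that activate it, Uba6 was at -0.08 ± 0.04 and was the only one of the 6 genes of ubiquitin supply with 1 sign on both arrays. Uba1, never saturated and named after its values were seen, was at -0.11 and 1.08 (0.49 ± 0.60), with 0.41 in Cy3 and 0.54 in Cy5, above the mean ratio of any proteasome gene.

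Peptide loading onto MHC class I, the step after the immunoproteasome, had a higher median than the proteasome. Its 10 genes had a median of 0.20 (0.02 and 0.59 by array), with 4 higher and 0 lower on both arrays (24.4% and 27.4% of all genes) and 3 saturated. In Cy3, all 9 genes not saturated in that dye were higher, against 47.5% of all genes. The chaperone Calr was at 0.27 and 0.92 (0.60 ± 0.33), past 1.5-fold, and the peptidase Erap1 at 0.13 on each array. Tap1 and Tap2, which pump peptides into the endoplasmic reticulum, lie interleaved with Psmb8 and Psmb9 on chromosome 17 in RefSeq's gene order. Tap1 was at -0.30 and 0.62 (0.16 ± 0.46), with 0.19 in Cy3 and 0.10 in Cy5, and Tap2 at -0.09 and 0.56 (0.24 ± 0.32), with 0.25 and 0.20. Beside them, Psmb8 was at 0.10 and Psmb9 at -0.08 in Cy3, so the 4 neighbours did not share 1 ratio. No test of these differences was possible.

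The RNA integrity numbers were 9.7 to 9.8, and between 64.7% and 67.7% of the spots in each channel exceeded background clearly. Saturation touched 163 and 71 spots in Cy3 and 538 and 562 in Cy5 on arrays 1 and 2. All 8 markers of B cells were measured, with a median ratio of 0.17 (-0.43 and 0.75 by array), a range of -0.08 to 0.86 and 4 of them saturated. The highest was Cd79a, a subunit of the B cell receptor that was never saturated, at 0.86 ± 0.70, with 0.84 in Cy3 and 0.85 in Cy5. Markers of other cells were measured too: all 7 of T cells (median 0.07, range -0.07 to 0.32), all 6 of macrophages and monocytes (0.02, -0.49 to 0.27), 4 of 6 of dendritic cells (0.03), 2 of 4 of natural killer cells (0.17), 2 of 4 of granulocytes (-0.12) and 2 of 4 of erythroid cells (0.05). The part of other cells in the proteasome ratios was not tested. In such bulk RNA, fewer cells of a type and less RNA per cell cannot be told apart.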

How the data were processed

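The authors deposited scanner files for both arrays, made with Agilent Feature Extraction 9.1.3.1 per the file headers. Their deposited values are a mean spot intensity and a local median background intensity per dye, uncorrected, and a log10 ratio of Cy5 over Cy3 from the scanner's own background-subtracted and dye-normalised signals. A further table deposited by the authors gives log2 ratios. Its row identifiers matched no probe name, so it was not used for named genes. The genome build of the array is not given in the sources used here.

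From the intensities, ratios were derived with limma 3.58.1 in R 4.3.3: normexp background correction with an offset of 50, then loess within each array with control spots at weight 0. Of 45018 spots per array, 43379 were not controls. Outlier spots (7 and 21) were left out and saturated spots kept. Array 2 was turned for the dye exchange. Spots of a probe were averaged and the brightest measured probe stood for a gene. Of 5752 genes with several measured probes, 2397 had probes of opposite sign. RefSeq named 22895 probes by accession, 6650 by symbol and 3107 by synonym; 8455 kept the file's name. Dye pairs used loess between arrays with a span of 0.3. Loess and dye pairs were checked on simulated data with known ratios. The single RNA per vector limits what a ratio can show, and both arrays give technical precision only.

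The members and lists were chosen with earlier results of these data known. Named were all immunoproteasome genes and their catalytic counterparts, the highest and lowest gene of each other group, and genes past 1.5-fold, saturated, not measured or with probes of opposite sign; of related lists, the highest and lowest gene with the same sign on both arrays. Psmd1, Psmc3, Psmd2, Psmd4, Psmd7, Psmd14, the Tap genes, Nfe2l1, Ddi2, Pomp, Uba1 and Cd79a were named after their values were seen, and further alpha subunits as examples. The dye pairs, the comparison of regulatory particle and core, the comparison with the brightest genes and the promoter letters were also chosen after the data were seen.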

Additional observations from a re-analysis of the deposited data

How the results depend on the processing

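Alternatives were centring on the array median in place of loess, the scanner's own ratio, an offset of 16, no saturated genes, the mean of all probes, no background filter, each array left out, and, chosen after seeing the data, each dye alone. Under centring the group medians were -0.33 for all members, -0.40 for alpha, -0.36 for beta, -0.34 for immunoproteasome, -0.23 for base and -0.28 for lid genes. On both arrays 0 of 40 members were then higher and 20 lower, against 9.06% and 55.3% of all genes. Psmc6, at -0.62 under centring, was the 1 gene past 1.5-fold lower. Neither under centring nor on a single array was the share of all genes past that cut counted. Under centring all measured genes had a median of -0.20. Relative to all measured genes, the family was at -0.12 under centring and at 0.10 with loess. In the Cy5 pair the median of all members was 0.02 and that of the lid 0.04. With 1 array left out, the median ran from 0.03 to 0.08 for all members, from -0.04 to 0.06 for beta genes and from 0.11 to 0.32 for base genes, and the genes past 1.5-fold higher numbered 0 to 1, the 1 being Psmf1 at 0.63 on array 2. The cause of these shifts was not tested. Of 42 measured names, 32 had another sign under centring, 4 in the Cy3 pair, 6 of 37 in the Cy5 pair, 3 with the mean of all probes, 1 with the scanner's ratio, 1 with an offset of 16, and 8 and 15 on a single array. Without the background filter or without saturated genes, 0 did. The deposited table was planned as an alternative and was not run. Its row identifiers matched no probe name, and a match by value was not used to name rows. For 40929 single-spot probes its value pairs were found among the scanner's ratios within 0.0002, once constants of 0.0011 and 0.0327 were added and array 2 was turned; its column medians were -0.0626 and -0.0704. No paired analysis was possible because both arrays hold the same pair of RNAs. Saturation in Cy5 limits Psmb4, Psmb8, Psmb9, Psme1 and Psme2b-ps, for which Cy3 alone gives an open reading.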
